A study of Mus musculus with 135 samples.

Results

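The transcription factors described here are 10 genes that act together in blood stem cells: the heptad *Gata2*, *Runx1*, *Tal1*, *Lmo2*, *Lyl1*, *Erg* and *Fli1*, and the partners *Meis1*, *Mecom* and *Hlf*. They were taken by name from a table of read counts for 15181 RefSeq genes, and all 10 were in it. The table holds single haematopoietic stem cells (HSCs) of C57BL/6 mice carrying a Vwf-eGFP reporter, a transgene in which Vwf sequences drive a green fluorescent protein, sorted from bone marrow as lineage-negative cells with Sca-1, c-Kit and CD150 but without CD48 or the dead-cell dye 7AAD. The young cells came from a mouse of 2-3 months and the old cells from a mouse of 20-25 months, and both ages carried the reporter. Each age was 1 mouse, so cells were not replicates of an age, no test between ages was made, and age cannot be told apart from the mouse or its capture.

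The heptad factors bind together at many regulatory elements of blood stem and progenitor cells, where each recognises its own short DNA motif or, in the case of LMO2, bridges other factors without binding DNA itself. Several of them bind at each other's genes and are needed to form or keep HSCs. MEIS1, the EVI1 protein encoded by *Mecom*, and HLF are further regulators of stem cell self-renewal and quiescence.

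Levels are given as log2(CPM + 1), where CPM is a gene's share of a cell's counted reads scaled to 1000000, and a gene counted as expressed in a cell at values above 2. The 52 young cells that passed the study's quality limits held between 273236 and 5688706 counted reads and expressed a median of 4115.5 genes, and the 62 old cells held between 276316 and 4086659 reads and expressed a median of 3901.5 genes. The median number of counted reads was 2.80e+06 in young and 2.12e+06 in old cells. Every cell expressed at least 1 of 8 stem cell markers, with *Kit* in 49 young and 61 old cells, whereas *Slamf1*, which encodes the CD150 used in the sort, was expressed in 9 and 15 cells. *Hba-a1* was listed at 0 in every cell, and at least 1 megakaryocyte marker was expressed in 24 young and 48 old cells. Counted in the same way, at least 1 granulocyte or macrophage marker was expressed in 48 and 61 cells, endothelial marker in 37 and 35, T cell marker in 23 and 21, the B cell marker *Cd79b* in 12 and 16, and erythroid marker in 6 and 4. Of the granulocyte and macrophage markers, *Prtn3* was expressed in 38 young and 59 old cells and *Lyz2* in 43 and 43. The others were rare: *S100a8* in 4 and 3, *Mpo* in 2 and 1, *S100a9* in 2 and 2, *Elane* in 0 and 1, and *Ly6c2* in 0 and 2. *Xist* was expressed in 50 young but 8 old cells, and any of 4 Y-linked genes in 2 young but 58 old cells, so that age and the sex of the mouse cannot be told apart either. The mean level of 10 cell cycle genes was 2.76 in young and 1.43 in old cells, and 25 young and 49 old cells expressed none of 4 of them (*Ccna2*, *Ccnb1*, *Cdk1* and *Cdc25c*).

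The table gives 1 count per gene, so reads from different start sites of a gene are not told apart. *Gata2* and *Mecom*, the genes with the largest differences between the ages among the 10, each have more than 1 annotated start, and their promoters are shown to place these starts. The sequences are those of RefSeq on GRCm38.p6 (mm10), from 250 bases before to 50 bases after a start, written 5′ to 3′ on the strand of the gene, with matches to the searched motifs in capitals. *Gata2* spans chr6:88193891-88207032 (+) and *Mecom* chr3:29951296-30509759 (-). The first *Gata2* promoter lies at chr6:88193641-88193940 (+) and the second at chr6:88198414-88198713 (+), and the *Mecom* promoters lie at chr3:30509710-30510009 (-) and chr3:30013155-30013454 (-).
Gata2 first promoter: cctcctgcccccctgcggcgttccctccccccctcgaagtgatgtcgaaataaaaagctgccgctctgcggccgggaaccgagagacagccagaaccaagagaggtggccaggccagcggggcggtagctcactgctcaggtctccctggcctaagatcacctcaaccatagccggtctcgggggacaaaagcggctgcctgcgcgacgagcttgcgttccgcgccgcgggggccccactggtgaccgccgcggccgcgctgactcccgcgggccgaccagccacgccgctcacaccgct
Gata2 second promoter: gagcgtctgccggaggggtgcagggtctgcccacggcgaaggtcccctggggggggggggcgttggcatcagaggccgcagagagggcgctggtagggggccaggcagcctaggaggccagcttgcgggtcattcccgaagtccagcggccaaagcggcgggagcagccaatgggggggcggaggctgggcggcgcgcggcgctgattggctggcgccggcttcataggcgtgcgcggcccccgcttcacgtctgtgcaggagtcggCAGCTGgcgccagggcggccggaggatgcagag
Mecom first promoter: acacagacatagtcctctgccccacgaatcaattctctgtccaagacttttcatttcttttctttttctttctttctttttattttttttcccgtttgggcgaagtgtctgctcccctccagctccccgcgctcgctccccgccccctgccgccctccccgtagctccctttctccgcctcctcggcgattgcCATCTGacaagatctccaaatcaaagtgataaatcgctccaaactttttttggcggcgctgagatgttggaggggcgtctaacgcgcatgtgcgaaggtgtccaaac
Mecom second promoter: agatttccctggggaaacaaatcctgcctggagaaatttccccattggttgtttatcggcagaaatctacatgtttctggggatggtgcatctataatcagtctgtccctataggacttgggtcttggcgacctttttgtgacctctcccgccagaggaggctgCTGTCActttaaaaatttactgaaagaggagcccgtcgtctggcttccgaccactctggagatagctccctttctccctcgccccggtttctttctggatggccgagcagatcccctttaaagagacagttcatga

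The letters searched on both strands were AGATAA for GATA factors, AGGAAG for ETS factors, TGTGGT for RUNX factors, CAGCTG and CATCTG for bHLH factors, TGACAG for MEIS factors and TTACGTAA for HLF and its relatives. The second *Gata2* promoter held CAGCTG, which 16.3% of all 32851 promoters held, and the first held none of the motifs. The first *Mecom* promoter held CATCTG, present in 17.2% of all promoters, and the second held TGACAG on its reverse strand, present in 19.2%. Among 14 promoters of 8 of the factors, AGATAA was found in 2 (*Erg* and *Tal1*) and 11.2% of all promoters held it, AGGAAG was found in 2 (*Erg* and *Runx1*) against 35.4%, and TGTGGT was found in 2 (*Meis1* and *Runx1*) against 16.8%. TTACGTAA was found in none of the 14 and in 0.119% of all promoters. The *Gata2* promoters had a GC content of 69.3% and 73.7%, and those of *Mecom* 52% and 49.7%. Promoters of *Lmo2* and *Fli1* were not analysed here.

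*Gata2* was the factor that differed most between the ages. It encodes a zinc finger protein that binds GATA motifs and is needed for HSCs to arise and survive. In young cells its level had a lowest value of 0, a median of 8.18 and a highest value of 11.95, and in old cells a lowest value of 3.76, a median of 9.61 and a highest value of 11.95. The highest cells of the ages were alike, and the gap was wider at the lower quartile (5.39 in young and 8.91 in old cells) than at the upper (9.38 and 10.42). *Gata2* was expressed in 45 of 52 young cells (86.5%, 95% exact binomial interval 74.2 to 94.4%) and in all 62 old cells (100%, 94.2 to 100%), intervals that overlap slightly. No read of it was found in 4 young cells, while every old cell had reads of it. The mean level was 7.11 ± 3.38 (SD over 52 cells) in young and 9.49 ± 1.53 (SD over 62 cells) in old cells, a difference of 2.39, which ranked 52 of 15014 genes from the highest in old cells. Within expressing cells the difference of mean levels was 1.40. Counted as reads, young cells held 87942 (exact Poisson interval 87361.7 to 88525.2) and old cells 130605 (129898 to 131315). The CPM of these summed reads gave a log2 ratio of 0.78, smaller than the difference of mean log2 levels. A single cell supplied 13.75% of the young reads. In the cells that expressed none of the 4 cell cycle genes the difference was 2.71. Beside it, the summed CPM of 5 megakaryocyte markers had a median of 1.69 (range 0 to 736.7) in young and 91.8 (range 0 to 3183) in old cells, and none of the 5 was at 0 in either age. Of the 5, 3 had a higher and 2 a lower mean level in old cells, and *Itgb3* alone passed 1 (2.83). The summed CPM of 7 granulocyte and macrophage markers had a median of 184.9 in young and 390.2 in old cells, with 3 higher, 4 lower and *Prtn3* alone past 1 (2.49), and that of 5 endothelial markers 80.6 and 15.3, with 2 higher, 3 lower and *Emcn* alone past 1 (-1.59). The part of these markers in the difference of *Gata2* was not tested. All intervals given here cover counting error only. The Poisson intervals also take each read as a separate count, although the reads carry no molecular identifiers and copies of 1 molecule are not told apart.

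**Figure D1:**
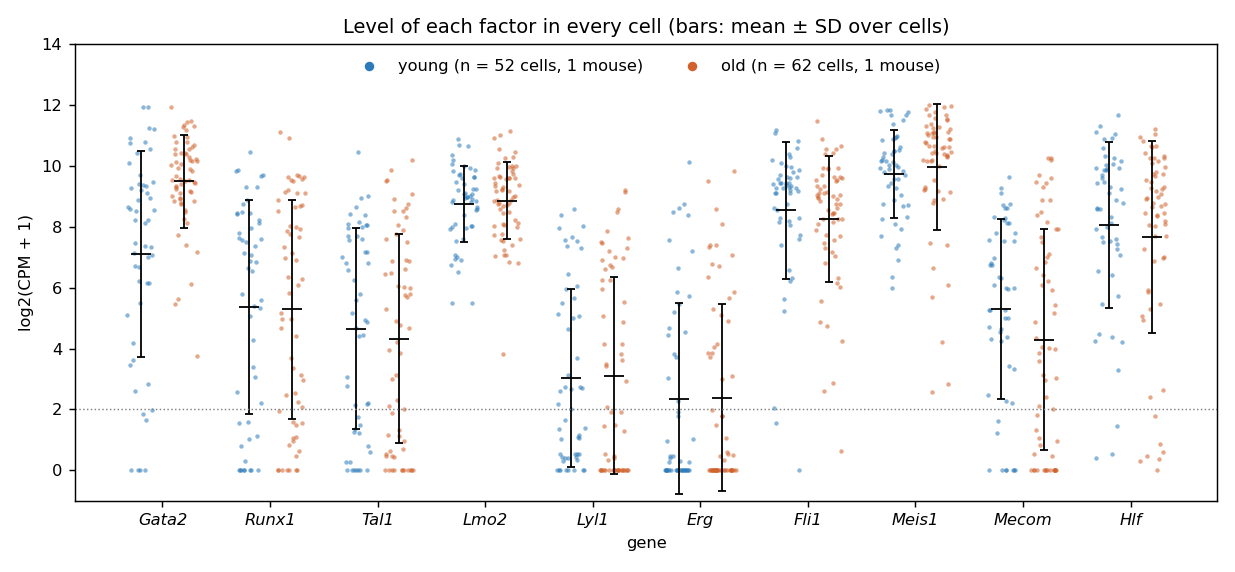
The level of each of the 10 factors, in log2(CPM + 1), is plotted for every young (blue) and old (orange) cell, with bars for the mean ± SD over cells and a dotted line at the limit of 2 above which a gene counted as expressed. Gata2 lacks the low tail in old cells (lowest 3.76) that it has in young cells (lowest 0), while Lmo2 and Meis1 lie above 2 in every cell of both ages.

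*Tal1*, *Lyl1* and *Lmo2* encode the parts of a complex that is nucleated by bHLH proteins and bridged by LMO2 to GATA factors. *Lmo2* was expressed in all 52 young and all 62 old cells. Its lowest, median and highest levels were 5.49, 8.96 and 10.89 in young cells and 3.81, 8.99 and 11.13 in old cells, and the means were 8.73 ± 1.25 and 8.86 ± 1.27 (SD). The ages overlapped almost throughout. *Tal1*, which encodes the bHLH factor also called SCL, was expressed in 36 young (69.2%) and 40 old cells (64.5%). It ranged from 0 to 10.47 in young cells with a median of 5.05 and from 0 to 10.20 in old cells with a median of 4.73. In the cells that expressed none of the 4 cell cycle genes the direction turned, with 48% of young but 65.3% of old cells expressing *Tal1* and a difference of mean levels of 0.73, against -0.33 in all 114 cells. Its close relative *Lyl1* was expressed in 27 young (51.9%) and 30 old cells (48.4%), with medians of 2.11 and 1.91. The mean of *Lyl1* was 3.03 ± 2.91 in young and 3.11 ± 3.23 in old cells (SD), but its distribution differed in shape: 8 young and 23 old cells had no read of it, and its mean in expressing cells was 5.35 in young and 6.10 in old. A single old cell supplied 29.2% of the old reads of *Lyl1*, and the same cell supplied 25.2% of those of *Tal1*.

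The related *Tal1* and *Lyl1* proteins can stand in for each other in adult HSCs, so their presence was counted cell by cell, as a grouping chosen after the values had been seen. At least 1 of the 2 genes was expressed in 46 of 52 young cells (88.5%, 76.6 to 95.7%) and 49 of 62 old cells (79.0%, 66.8 to 88.3%), and both in 17 and 21 cells. *Gata2*, *Lmo2* and either *Tal1* or *Lyl1* were expressed together in 40 young cells (76.9%) and 49 old cells (79.0%). Requiring also *Ldb1*, the scaffold that joins LMO2-containing complexes, and at least 1 of the E protein genes *Tcf3*, *Tcf4* and *Tcf12*, whose products pair with TAL1 and LYL1, left 16 young (30.8%, 18.7 to 45.1%) and 21 old cells (33.9%, 22.3 to 47%). The intervals of the ages overlapped for each of these combinations.

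*Runx1* encodes a Runt-domain factor needed for HSCs to emerge from endothelium. It was expressed in 38 young (73.1%) and 45 old cells (72.6%). Its levels ran from 0 to 10.44 with a median of 6.74 in young cells and from 0 to 11.11 with a median of 5.95 in old cells. The mean levels were 5.37 ± 3.52 and 5.28 ± 3.60 (SD), a difference of -0.09. In the cells without the 4 cell cycle genes the difference was 0.53, with *Runx1* in 68% of young and 79.6% of old cells. It was expressed together with *Cbfb*, which encodes the subunit that stabilises RUNX proteins on DNA, in 18 young (34.6%) and 17 old cells (27.4%), with overlapping intervals.

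*Erg* and *Fli1* encode ETS factors that bind closely related DNA motifs, and both were counted in each cell. *Fli1* was expressed in 50 young (96.2%) and 61 old cells (98.4%), with medians of 9.26 and 8.79 and means of 8.54 ± 2.25 and 8.25 ± 2.08 (SD). *Erg* was expressed in 19 young (36.5%) and 23 old cells (37.1%), with medians of 0.35 and 0.49. In the cells that expressed none of the 4 cell cycle genes, the shares for *Erg* were 20% of young and 32.7% of old cells. *Erg* was without a read in 23 young and 29 old cells, and 1 young cell held 31% of the young reads of *Erg*. Every cell that expressed *Erg* also expressed *Fli1*, which gave 19 young and 23 old cells with both and 31 and 38 with *Fli1* alone. No cell expressed *Erg* without *Fli1* (0 of 52 young cells, which allows up to 5.77%, and 0 of 62 old cells, which allows up to 4.84%), beside only 2 young cells and 1 old cell that did not express *Fli1*.

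Among the partners, *Meis1*, a homeodomain factor that pairs with HOX proteins, was expressed in every cell of both ages, with lowest, median and highest levels of 5.97, 9.99 and 11.85 in young cells and 2.57, 10.60 and 11.99 in old cells. The means were 9.74 ± 1.44 and 9.96 ± 2.06 (SD). *Hlf*, which encodes a PAR bZIP factor of quiescent HSCs, was expressed in 49 young (94.2%) and 55 old cells (88.7%). Its medians were 8.70 and 8.72, its highest levels 11.65 and 11.19, and its means 8.05 ± 2.72 and 7.66 ± 3.15 (SD). In the cells that expressed none of the 4 cell cycle genes, the mean of *Hlf* differed by -1.49, against -0.39 in all 114 cells, and *Hlf* was then expressed in all 25 young (100%) and in 85.7% of 49 old cells.

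*Mecom*, whose zinc finger products include EVI1, was expressed in a smaller share of the old cells. The counts were 43 of 52 young cells (82.7%, 69.7 to 91.8%) and 40 of 62 old cells (64.5%, 51.3 to 76.3%), intervals that overlap, and 7 young and 15 old cells had no read. Its level ran from 0 to 9.64 with a median of 5.97 in young cells and from 0 to 10.27 with a median of 4.01 in old cells. The means were 5.29 ± 2.95 and 4.29 ± 3.62 (SD), a difference of -0.998 that lay just inside the limit of 1. In cells that expressed it the mean was 6.33 in young and 6.48 in old cells. By the CPM of its summed reads, *Mecom* was higher in old cells, with a log2 ratio of 0.54. Cells that expressed none of the 4 cell cycle genes showed a difference of -0.03, with *Mecom* expressed in 68% of the 25 young and 67.3% of the 49 old cells. The part of cell cycle gene expression in the difference over all cells was not tested.

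The 10 factors were then read against the whole table. With a limit of 1 on the difference of mean log2(CPM + 1), 1 factor (*Gata2*) was higher in old cells, where 3.91% of the 15014 genes with a count were, and none was lower, where 4.49% were. Restricting the table to 9374 genes that at least 10% of cells expressed, 6.24% were higher and 6.98% lower. Of the 10 factors, 5 had a higher and 5 a lower mean in old cells, and their median difference was -0.03, beside -0.02 over all genes.

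**Figure D2:**
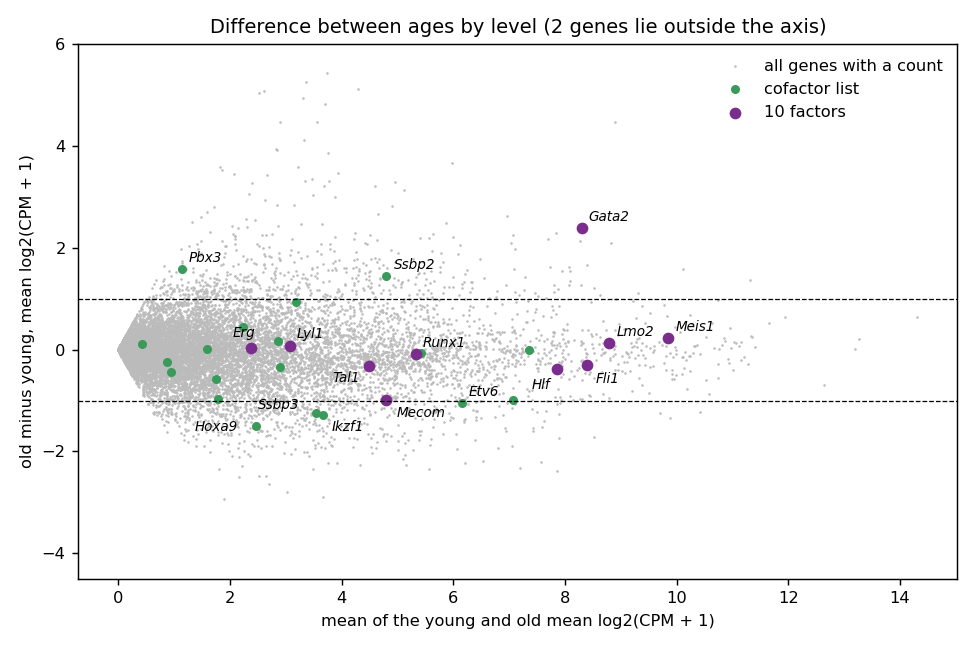
Each point is a gene, with the mean of its young and old levels on the x axis and old minus young on the y axis, both in log2(CPM + 1), and dashed lines mark differences of 1 and -1. Of the 10 factors (purple), Gata2 lies above the upper line at 2.39 and Mecom at the lower line, while 6 of the 19 cofactor genes (green) lie beyond the lines. Of all 15014 genes with a count, 3.91% lie at or above the upper line and 4.49% at or below the lower line.

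Levels were compared between the factors per kilobase of the longest coding transcript, as the median CPM per kilobase over cells. In young cells the order was *Lmo2* (292), *Fli1* (185), *Meis1* (135), *Gata2* (80.7), *Hlf* (73.7), *Runx1* (18.1), *Mecom* (10.8), *Tal1* (7.67), *Lyl1* (1.84) and *Erg* (0.084). In old cells *Lmo2* (298) was followed by *Gata2* (219), *Meis1* (205), *Fli1* (134), *Hlf* (74.6), *Runx1* (10.4), *Tal1* (6.07), *Mecom* (2.65), *Lyl1* (1.54) and *Erg* (0.125). *Gata2* thus stood in place 4 in young and place 2 in old cells by the median. By the mean CPM per kilobase it stood in place 3 in young and place 2 in old cells. The ranges from the first to the third quartile overlapped for every pair of neighbours in either order of medians, so neighbours were not separated beyond the spread between cells. Of the exons of *Meis1*, 13.6% overlap *Gm37818* on the same strand, and short stretches of *Runx1*, *Lyl1* and *Mecom* overlap a gene on the other strand, whose reads could not be separated.

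Genes that encode binding partners of the factors were examined next. Of 19 cofactor genes described here, 2 were higher and 4 lower in old cells by at least 1, and their median difference was -0.25. Over all 15014 genes with a count, 3.91% were higher and 4.49% lower by at least 1, and the median difference was -0.02. Among genes that at least 10% of cells expressed, the shares were 6.24% and 6.98%. *Pbx3*, which encodes a homeodomain protein, was expressed in 3 young and 19 old cells, with means of 0.35 and 1.93. *Hoxa9*, which encodes a homeobox protein that binds DNA with MEIS1, went the other way, with means of 3.22 and 1.72 and 26 young and 15 old cells expressing it.

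*Ssbp2*, which encodes a protein that protects LDB1 complexes from degradation, had means of 4.08 and 5.53, and its relative *Ssbp3* had means of 4.16 and 2.92. *Ikzf1*, which encodes the lymphoid regulator IKAROS, had means of 4.30 and 3.02, and *Etv6*, which encodes an ETS repressor, had means of 6.68 and 5.63.

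Of 17 paralogues of the factors, 15 were measured and none differed by 1 or more, from -0.62 for *Tef* to 0.78 for *Ets1*. *Gata1*, the paralogue of *Gata2* that drives erythroid and megakaryocytic genes, was expressed in 2 young and 3 old cells, whereas *Gata3* was expressed in 34 and 50. *Prdm16*, the paralogue of *Mecom*, had means of 3.41 and 3.03. *Mecom* or *Prdm16* was expressed in 48 of 52 young cells (92.3%, 81.5 to 97.9%) and 46 of 62 old cells (74.2%, 61.5 to 84.5%), intervals that overlap.

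**Figure D3:**
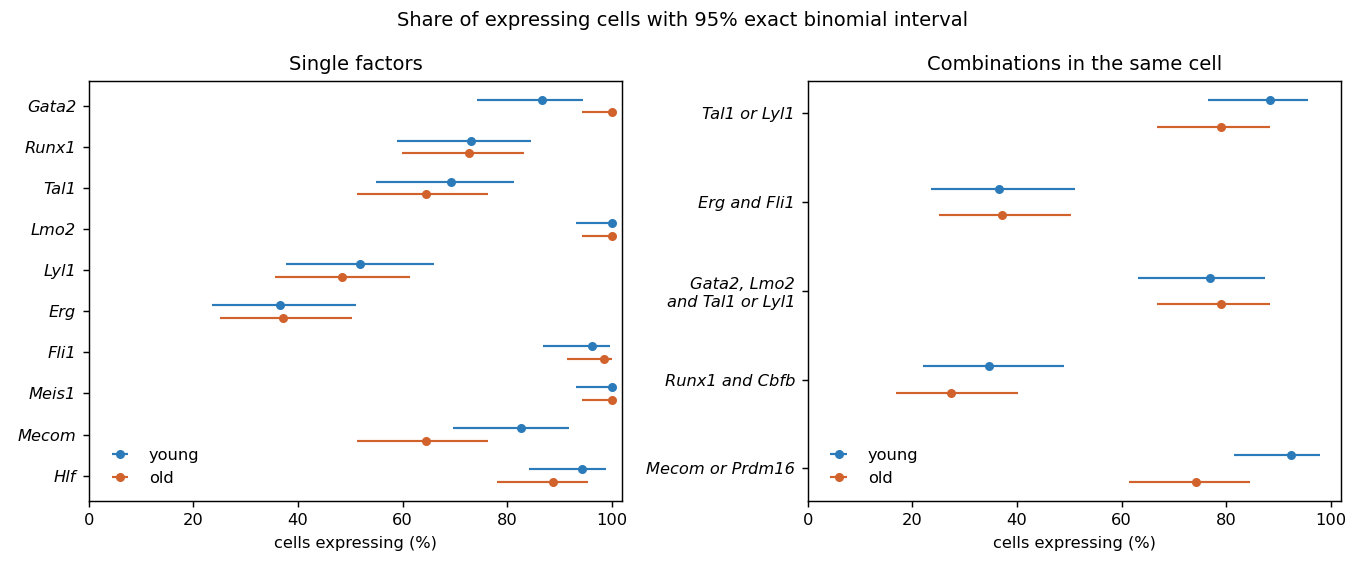
The share of young (blue) and old (orange) cells that expressed each factor (left) or each combination of genes in the same cell (right) is shown in percent with 95% exact binomial intervals, which cover counting error only. For Gata2 the shares were 86.5% (young) and 100% (old), for Mecom 82.7% and 64.5%, and for Erg 36.5% and 37.1%.

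A typical cell expressed most but not all of the factors. The median number of the 10 expressed per cell was 8 in both ages, with a range of 5 to 10, and it was 8 in both after each cell was thinned to 250000 reads. All 10 were expressed in 5 young (9.62%) and 4 old cells (6.45%), and all 7 of the heptad in 5 young and 6 old cells. These counts depend on the limit. With a limit of 1 read and depths not made equal, all 10 were found in 16 young (30.8%) and 9 old cells (14.5%). All 7 of the heptad were then found in 17 young (32.7%) and 15 old cells (24.2%). All 3 partners were expressed in 41 young cells (78.8%, 65.3 to 88.9%) and 37 old cells (59.7%, 46.4 to 71.9%), intervals that overlap.

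Co-expression was described by Pearson's r of log2(CPM + 1) across the cells of an age, which share a mouse, a capture and a range of depths. Over the 45 pairs of factors the median r was 0.047 in young and -0.023 in old cells, beside 0.021 and 0.023 over all pairs of 6043 genes. In young cells 1 pair (2.22%) and in old cells 2 pairs (4.44%) reached 0.3, beside 3.11% and 2.36% of all pairs. The sign of r was the same in both ages for 24 of 45 pairs. Weak correlations of this size in sparse counts are given as a description only.

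In young cells the highest values were 0.33 for *Gata2* with *Fli1* and 0.30 for *Gata2* with *Tal1*, and in old cells the same pairs had r of -0.11 and -0.10. The lowest value was -0.34 for *Tal1* with *Hlf* in old cells, beside -0.11 in young cells. In old cells the highest were 0.36 for *Meis1* with *Hlf* and 0.33 for *Runx1* with *Tal1*, which had r of 0.04 and 0.07 in young cells. *Erg* with *Mecom* had 0.27 in young and -0.26 in old cells. *Lmo2* with *Hlf* (0.25 in young and 0.28 in old cells) and *Lmo2* with *Mecom* (0.21 and 0.23) were the 2 pairs with Pearson's r at 0.2 or more in both ages. By Spearman's rho both fell below 0.2 in young cells. *Lmo2* with *Hlf* had a rho of 0.170 in young and 0.426 in old cells, and *Lmo2* with *Mecom* 0.165 and 0.302.

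**Figure D4:**
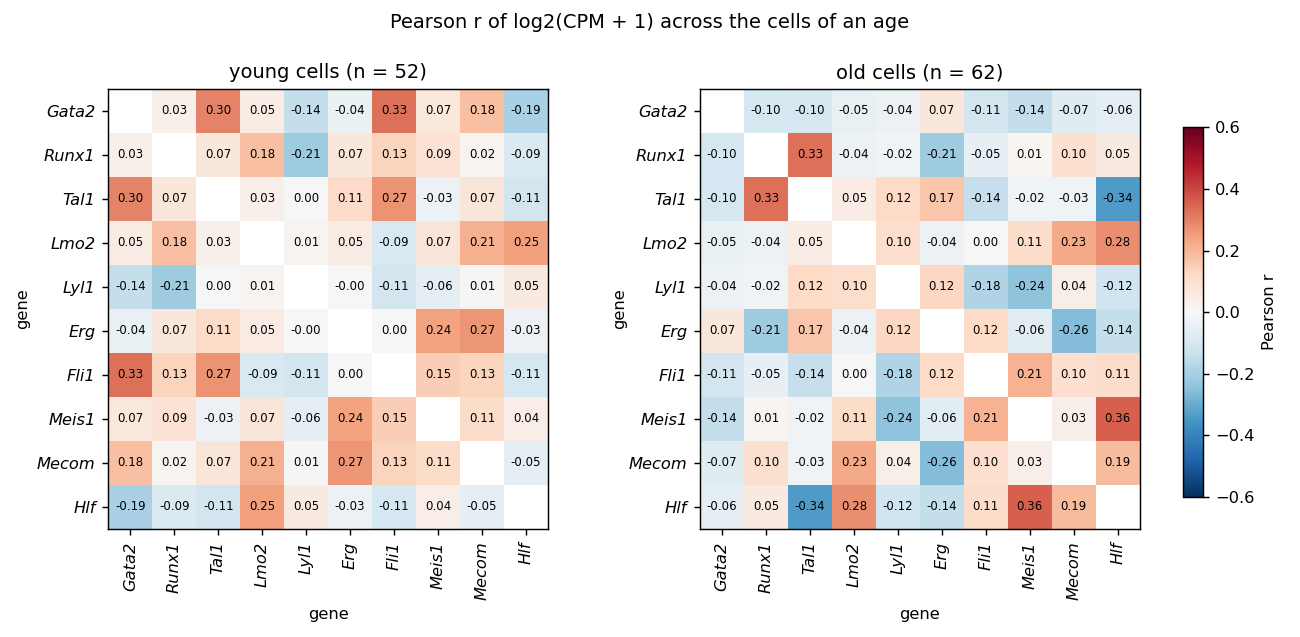
Pearson's r between each pair of the 10 factors is shown as a colour and a number for 52 young cells (left) and 62 old cells (right). Most squares are pale, and the highest squares differ between the ages, such as Gata2 with Fli1 (0.33 in young) and Meis1 with Hlf (0.36 in old).

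The factors were also set beside 12 platelet genes, several of which the study had named from these cells, and whose mean level was 1.22 ± 0.95 in young and 3.10 ± 1.23 in old cells (SD over cells). *Hlf* had the strongest value of the 10 factors in young cells, with r = -0.58 and Spearman's rho = -0.50 over 52 cells. Without the 2 cells farthest from the median of the platelet genes r was -0.47, and it was -0.51 given depth and the number of genes expressed. *Hlf* had a negative r with all 12 platelet genes in young cells, from -0.08 with *Fhl1* to -0.50 with *Itga2b*. These 12 genes make up the mean by which *Hlf* stood out, so their signs are not separate support. The share of all genes with a negative r with *Hlf* was not computed. Several of the 12 were rare in young cells, so their r rests on few cells. *Gp1bb* was expressed in 1 young cell, *Clu* and *Ppbp* in 2 each, and *Selp* and *Pf4* in 5 each. In the 62 old cells r of *Hlf* was -0.01, with 7 of 12 genes below 0. *Fli1*, whose product is a known activator of megakaryocyte genes, had r = 0.42 and rho = 0.39 in old cells and r = 0.08 in young cells. The r of *Fli1* in old cells was 0.46 without the 2 farthest cells. *Gata2* had 0.26 in young and -0.20 in old cells. The difference of r between the ages was not tested.

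**Figure D5:**
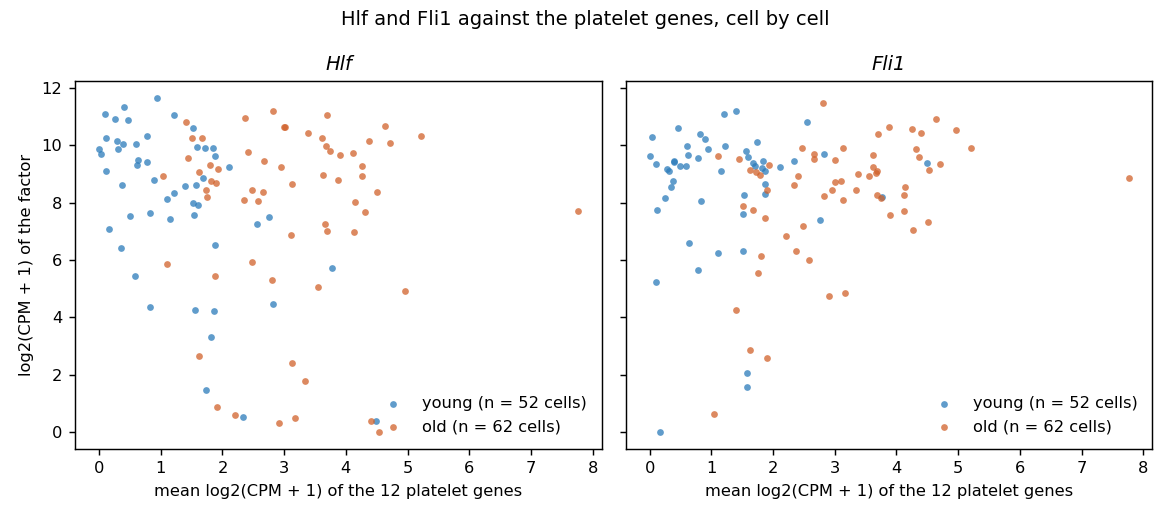
Each point is a cell, with the mean log2(CPM + 1) of 12 platelet genes on the x axis and the level of Hlf (left) or Fli1 (right) on the y axis. Young cells (blue) with more platelet gene expression tend to have lower Hlf (r = -0.58), while r is -0.01 in old cells (orange), and for Fli1 r is 0.08 in young and 0.42 in old cells.

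Among 6033 other genes that at least 20% of cells in each age expressed, those most like the mean of the 10 factors, by the mean of the young and old r, were *Tes* (0.37), *Kansl1* (0.35), *Arl4a* (0.32), *Mplkip* (0.31) and *Kmt2a* (0.31). For single factors the closest gene was *Kansl1* for *Gata2* (0.34), *Gm5176* for *Runx1* (0.34), *Cdca7* for *Tal1* (0.37), *Kmt2e* for *Lmo2* (0.34), *Ywhag* for *Lyl1* (0.32), *Abracl* for *Erg* (0.31), *Pfn1* for *Fli1* (0.36), *Gpr171* for *Meis1* (0.35), *Pam* for *Mecom* (0.41) and *Sh3gl2* for *Hlf* (0.35). These are the highest of many values and were chosen for being so. The gene most like the factor mean in young cells, *Tapbp*, had r = 0.51 there and -0.12 in old cells, and *Abracl* had r = 0.58 with *Erg* in young and 0.04 in old cells.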

How the data were processed

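Single HSCs were captured on a Fluidigm C1 system, and the authors aligned their 51 bp reads with TopHat2 2.0.10 (mm10) and deposited raw counts per RefSeq gene and cell. The table holds 61 young and 74 old cells, of which the 52 and 62 that pass the study's quality limits were used. Counts were scaled to the total of their cell (CPM), a level was the mean over cells of log2(CPM + 1) with a pseudocount of 1 CPM, which understates changes of low genes, and a difference was old minus young. With 1 mouse per age no count model was fitted. Shares have 95% exact Clopper-Pearson intervals, sums exact Poisson intervals, and a count of 0 allows up to 3 cells. Between the ages 46 well names recur, and no cells had identical counts. Of the entries, 21 join several gene names. Reads are not stated to be counted by strand.

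All 10 factors were named, with at most 5 cofactors and 5 paralogues by size of difference, closest paralogues, and the most correlated genes. A gene of the cofactor list is not reported here. *Etv6*, the combinations and the pairs with platelet genes were chosen after their values had been seen. The members and lists were chosen with earlier results of these data known. Alternatives used edgeR 4.0.16 (TMMwsp) and DESeq2 1.42.0 (poscounts) factors only for scaling. The steps ran in R 4.3.3 and Python 3.11.15 (scipy 1.17.1, numpy 2.4.6, pandas 2.3.3). Simulated counts were used to check the sign of planted differences, the r of a planted pair and the totals after thinning. An exact binomial limit was checked as well, and the other steps were not tested in this way.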

Additional observations from a re-analysis of the deposited data

How the results depend on the processing

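The difference of *Gata2* stayed positive under each of 11 alternatives, from 0.78 by summed counts to 2.71 in cells that expressed none of 4 cell cycle genes. That of *Mecom* ran from -1.44 with a pseudocount of 0.1 CPM to 0.54 by summed counts and was negative in 10 of 11. The number of factors past a difference of 1 was 2 instead of 1 with all cells deposited, with cells of at least 1000000 reads, with a pseudocount of 0.1 CPM, after thinning, and on a log2(CPM) scale with values below 1 CPM set to 0 (added after seeing the data), in each case by *Mecom*, and also 2 in the cells without the cell cycle genes, by *Hlf*. It was 0 by summed counts. Genes higher in old cells numbered 1122 in the cells without the cell cycle genes, 1232 with a pseudocount of 0.1 CPM and 2662 by summed counts, against 587, and genes lower numbered 1632 with that pseudocount and 2637 by summed counts, against 674. The cause was not tested. *Runx1* and *Tal1* differed by 0.53 and 0.73 in the cells without the cell cycle genes, against -0.09 and -0.33, and *Erg* by -0.60 by summed counts, against 0.04. Median correlations ran from -0.02 to 0.07 over the alternatives. No replicate could be left out with 1 mouse per age. No paired analysis was possible because young and old cells came from different mice, and a shared well name does not pair cells. The shares of low genes depend on the limit: with a limit of 1 read, *Erg* was detected in 55.8% of young cells and 53.2% of old ones, and after thinning to 250000 reads in 40.4% and 41.9%.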
